A study of Mus musculus with 39 samples.

Results

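Astrocytes labelled PFC from mice classed as resilient after chronic social defeat (5 libraries) were compared with astrocytes labelled PFC from control mice (6 libraries). These 11 libraries were taken by tissue and treatment label from the 39 of the series, which also holds 6 PFC libraries of susceptible mice and the libraries from the nucleus accumbens (NAc). In chronic social defeat a male mouse is exposed repeatedly to an aggressor and is classed afterwards by its social behaviour. Resilient mice are those that were defeated and kept their interest in other mice, susceptible mice those that came to avoid them, and control mice were not defeated. All 3 groups shared the rest of the preparation: male mice, freshly punched tissue, magnetic beads against ACSA-2 (an epitope on the Na/K-ATPase subunit encoded by Atp1b2, carried by astrocytes) and a total-RNA library kit for picogram input that does not select polyadenylated RNA. The protocol text gives NAc as the punched tissue throughout, whereas the 17 libraries used here carry the tissue label PFC, read as prefrontal cortex. Strain and age were not given in the sources used here, each library is labelled with a mouse id of its own, numbered on over both regions, and nothing says how tissue was collected across days. The description below covers 12256 of the 32167 genes tested, from 55401 in the count table. These passed a limit of 2 times the background cover estimated from olfactory and related receptor genes.

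Astrocytes clear glutamate and potassium from around synapses, are coupled to each other by connexins, line blood vessels with endfeet rich in the water channel aquaporin, and supply neurons with lactate and cholesterol. In the prefrontal cortex, a region that shapes emotional and social behaviour, lower astrocyte density and fewer astrocyte markers have been described after chronic stress and in depression. Glucocorticoid hormones, released under stress, act on astrocytes directly through their nuclear receptor.

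The deposited counts cover whole gene spans, introns included, so a gene with no transcript can still collect reads. That cover was measured in each library from 1479 olfactory, vomeronasal and trace-amine receptor genes, as their FPKM in percent of the FPKM that an even spread of all reads over gene spans would give, and is called background percent. It was 24.6, 19.03, 61.1, 71.5 and 60.4% in resilient replicates 1 to 5, against 36.8, 21.7, 66.4, 66.2, 53.4 and 58.3% in control replicates 1 to 6. Replicates 1 and 2 of both groups therefore had far less background than the others. The group means were 47.3 ± 23.8% in resilient and 50.5 ± 17.8% in control libraries, a difference of -3.13 percentage points (SD, n = 5 and 6, two-sided exact permutation test, p = 0.792). Library totals were 7620314, 4981701, 1603943, 20332497 and 6946366 counts in resilient replicates 1 to 5, against 5801113, 8862085, 17895232, 28212160, 17760688 and 12804289 counts in control replicates 1 to 6 (exact permutation test, p = 0.167). Resilient replicate 3 had the lowest total of the 11. Transcripts of mitochondrial DNA took 2.09 ± 1.35% of counts in resilient and 1.19 ± 0.712% in control libraries (SD, n = 5 and 6, exact permutation test, p = 0.199), with 3.70% and 3.13% in resilient replicates 2 and 3. A gene was taken as above background when its mean FPKM over the 17 PFC libraries was at least 0.737. That is 2 times the mean of the receptor genes, 0.369. This limit lies below 0.764, the FPKM of an even spread. A second measure of cover came from 60 single-copy genes of other organs. Its means were higher, 62.7 ± 34.0% in resilient and 79.8 ± 30.7% in control libraries (SD, n = 5 and 6). It reached 107% in resilient replicate 4, and 110% and 105% in control replicates 4 and 5. By this measure the limit is not well above background, and 10 of 57 tested genes of that kind passed it.

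The astrocyte label was borne out by the marker genes: all 26 listed astrocyte identity genes lay above background in these libraries. Their summed level was 3233 to 31280 CPM (median 9555) in resilient libraries, against 2948 to 11910 CPM (median 6835) in control libraries. Genes of other cell types were detected as well. The summed level of the 13 pan-neuronal genes above background was 1386 to 4636 CPM (median 1710) in resilient libraries, against 1290 to 5963 CPM (median 1674) in control libraries, and that of the 12 microglial genes was 114 to 309.5 CPM (median 159) in resilient libraries, against 97.7 to 216 CPM (median 176) in control libraries. Of the cell type markers, 8 of 20 microglial, 10 of 12 GABAergic neuron and 9 of 10 ependymal and choroid plexus genes stayed below the background limit. Above it were 18 of 20 oligodendrocyte, 13 of 16 pan-neuronal, 11 of 14 endothelial and 10 of 12 pericyte and smooth muscle genes. The oligodendrocyte genes summed to 684 to 3127 CPM (median 2625) in resilient libraries, against 814 to 2639 CPM (median 1562) in control libraries, and C1qc (complement, microglia) had no count in at least 1 library. In bulk RNA, fewer cells of a type and less RNA per cell cannot be told apart. The PFC label was less clear in the data. Tbr1 and Neurod6, transcription factors of cortical excitatory neurons, had medians of 9.69 and 5.71 raw CPM in PFC resilient libraries and 12.5 and 6.27 in PFC control libraries, against 8.92 and 2.84 in NAc resilient and 5.30 and 2.58 in NAc control libraries. The ranges of the regions overlapped for both genes.

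**Figure D1:**
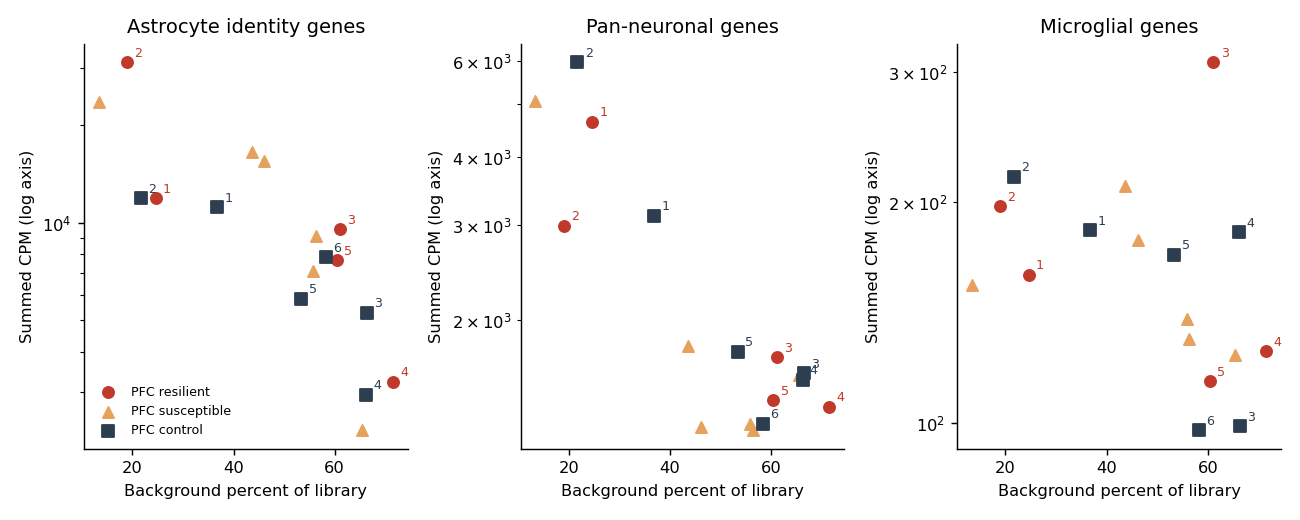
Summed CPM (log axis) of the 26 astrocyte identity, 13 pan-neuronal and 12 microglial genes above background, plotted against the background percent of each of the 17 PFC libraries. Circles are resilient, triangles susceptible and squares control libraries, numbered by replicate for resilient and control. Astrocyte sums were highest in resilient replicate 2 (31280 CPM, background 19.03%) and among the lowest in resilient replicate 4 (3233 CPM, background 71.5%), and control replicates 1 and 2, with low background, lie above the other 4 controls.

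Astrocyte sums were highest in the libraries of low background in both groups. Resilient replicates 1 to 5 had sums of 11920, 31280, 9555, 3233 and 7669 CPM, against 11170, 11910, 5273, 2948, 5827 and 7843 CPM in control replicates 1 to 6. Resilient replicate 2 stood well above every control library, resilient replicate 1 was level with the highest of them, and replicates 3, 4 and 5 lay within the control range. The background percent entered the fit of every gene as a covariate. That covariate itself was associated with 9781 of the 12256 genes above background (79.8%) at an adjusted p under 0.05 in edgeR's quasi-likelihood test, 8510 of them lower and 1271 higher where background was higher.

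No gene passed the adjusted threshold between the groups. With the quasi-likelihood test of edgeR and Benjamini-Hochberg adjustment, 0 of 32167 genes passed an adjusted p of 0.05 (0.0% called), and the lowest adjusted p was 1.00. DESeq2 and limma-voom also called 0. At an unadjusted p under 0.05 the edgeR test left 858 genes over all tested, against 1372 by DESeq2 and 967 by limma-voom. Among the genes above background these were 317, of which 181 (1.48%) were higher and 136 (1.11%) lower in resilient mice, where 613 would be 5% of the genes. The split of these genes depended on scaling: it was 238 higher and 108 lower with relative log expression scaling. Without the background covariate it was 105 higher and 24 lower. With a covariate from single-copy genes of other organs it was 39 higher and 127 lower. The ranges of the 5 resilient and 6 control libraries did not overlap for 8 genes above background (0.0653%).

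The limits that these libraries set on a difference were uneven. The median log2 fold change over genes above background was 0.0142 and its median standard error 0.187, which was 0.360 when the background covariate was left out. The 95% interval of the fold change lay within 2-fold either way for 10091 genes above background (82.3%), and for 3744 of the 3888 genes with an average log2 CPM over 5 (96.3%). For the remaining genes the interval reached past 2-fold on at least 1 side. All these intervals are for counts that include background. Its estimated median share was 32.2% in the shortest tertile of gene spans and 38.9% in the longest. The intervals therefore do not bound the change of the transcript alone. Short genes were measured least well: the median standard error was 0.361 in the shortest tertile of gene spans, 0.179 in the middle tertile and 0.126 in the longest.

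**Figure D2:**
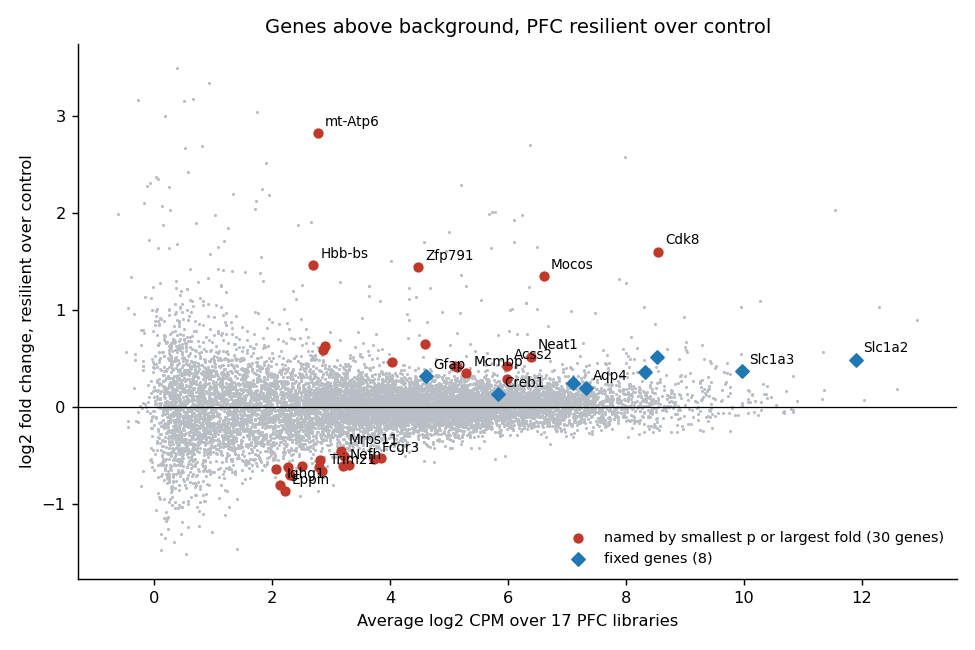
Log2 fold change of resilient over control libraries against average log2 CPM for the 12256 genes above background (grey), with the 30 genes named by smallest p or largest fold (red) and the 8 fixed astrocyte and CREB genes (blue). The cloud narrows toward high CPM, where the 8 fixed genes lie between 0.13 and 0.51, and no point passed the adjusted threshold.

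The genes that define astrocytes were measured slightly above their control level in resilient mice, and none passed the test. Slc1a2, the main glutamate transporter of forebrain astrocytes, had 4298, 10990, 3383, 1132 and 3024 CPM in resilient replicates 1 to 5, against 3629, 4102, 1797, 1007, 2011 and 3003 CPM in control replicates 1 to 6. The groups overlapped, with the highest level in resilient replicate 2 and the lowest in control replicate 4. With background in the fit its log2 fold change was 0.49 ± 0.38 (95% interval -0.32 to 1.30). The second glutamate transporter, Slc1a3, averaged 1174 ± 1084 CPM in resilient and 702 ± 377 CPM in control libraries (SD, n = 5 and 6), a log2 fold change of 0.37 ± 0.36. Atp1b2, which carries the epitope used for the sort, had a log2 fold change of 0.51 ± 0.40, from 460.3 ± 399 CPM in resilient and 249 ± 138 CPM in control libraries. For Gja1, the main astrocytic connexin, it was 0.37 ± 0.42, and for Aqp4, the endfoot water channel, 0.20 ± 0.42. Without resilient replicate 3 Slc1a3 was at 0.21, Atp1b2 at 0.23, Gja1 at 0.09 and Aqp4 at -0.03. Aldh1l1, a folate-metabolising enzyme that marks astrocytes, had 129, 265, 118, 90.8 and 130.5 CPM in resilient replicates 1 to 5, against 113, 148, 102, 90.0, 111 and 119 CPM in control replicates 1 to 6. Its log2 fold change of 0.25 ± 0.14 dropped to 0.09 without resilient replicate 2.

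Gfap, the intermediate filament protein whose level marks reactive astrocytes, had 22.6, 57.05, 13.9, 14.7 and 21.8 CPM in resilient replicates 1 to 5, against 21.3, 18.1, 20.4, 14.4, 16.4 and 16.7 CPM in control replicates 1 to 6. Resilient replicate 2 was far above the rest, replicates 1 and 5 lay just above the highest control library, replicate 4 within the control range and replicate 3 just below it. Its log2 fold change was 0.32 ± 0.20 and became 0.09 without that library. Over the 26 identity genes, 26 had a fold change above 0, with a median of 0.352 against 0.0142 over all genes above background. None passed the test, and none reached an unadjusted p of 0.05. The smallest p among them belonged to Aldh1l1 (adjusted p = 1.00), followed by Acsl6, an acyl-CoA synthetase of brain lipids (0.41 ± 0.24), and Slc4a4, the sodium bicarbonate cotransporter of astrocytes (0.28 ± 0.18). Without resilient replicate 2 they were at 0.25 and 0.16. The size of this shift in the astrocyte identity list depended on how background was handled. The median was 0.732 without a covariate and 0.0675 with the covariate from single-copy genes, which left 21 of 26 above 0. It was 0.199 without resilient replicate 2 and 0.212 without resilient replicate 3.

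**Figure D3:**
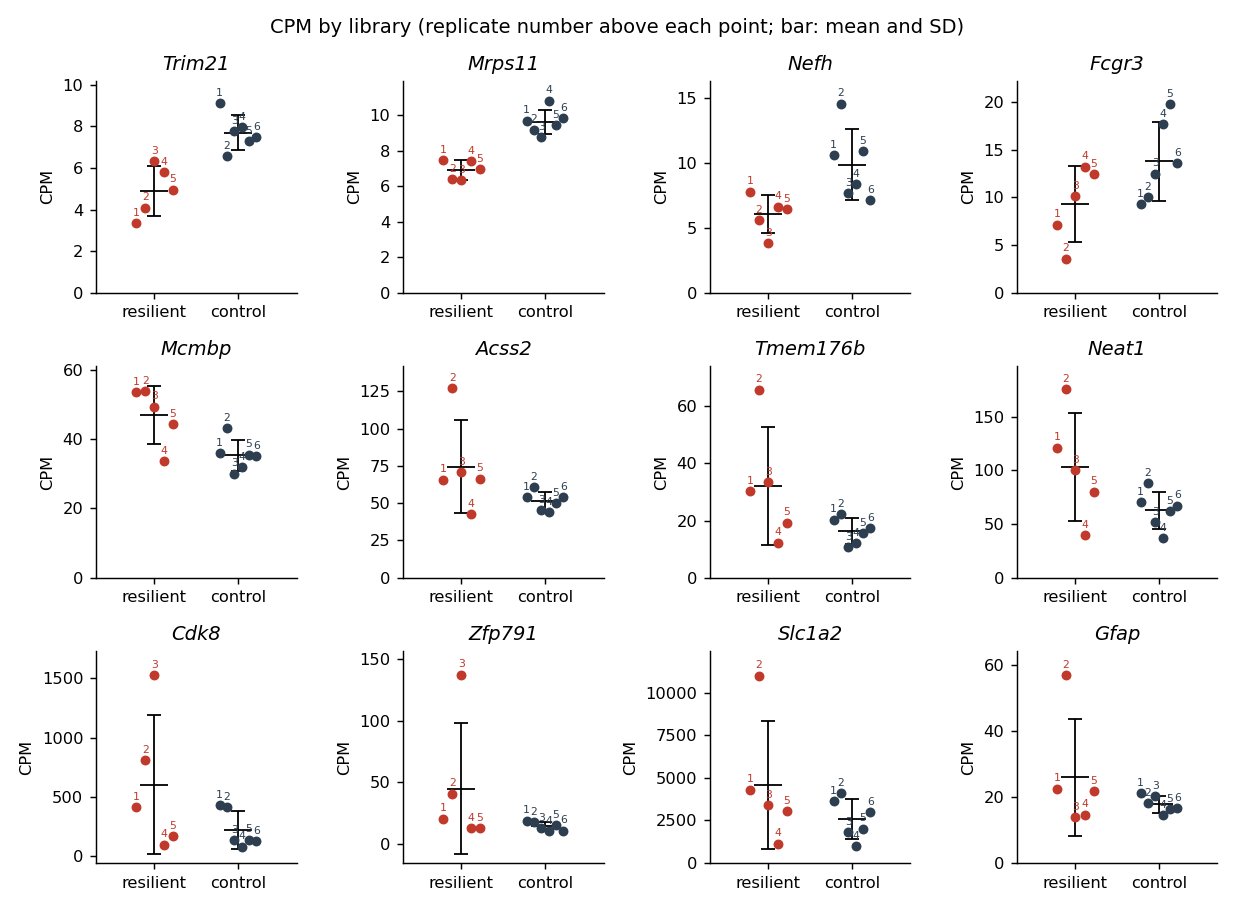
CPM of 12 genes in each library, resilient on the left and control on the right of each panel, with replicate numbers, means and SD. Trim21 and Mrps11 show no overlap between the groups, Slc1a2 and Gfap are highest in resilient replicate 2, and Cdk8 and Zfp791 in resilient replicate 3.

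Lists of astrocyte function had most of their genes above 0, where 53.4% of all genes above background were above 0. Some genes, such as Glul, are also in the astrocyte identity list, so the lists are not separate results. In the glutamate and GABA handling list, 12 of 14 genes lay above 0 (median 0.247), including Glul, the glutamine synthetase (0.48 ± 0.41), and Slc6a11, a GABA transporter (0.25 ± 0.19). Without resilient replicate 3 Glul was at 0.15, and without resilient replicate 2 Slc6a11 was at 0.11. In the endfoot water and potassium list it was 13 of 14 (median 0.216), with Clcn2, a chloride channel, at 0.23 ± 0.12 and Kcnk1, a potassium leak channel, at 0.24 ± 0.17. All 6 genes of the gap junction and hemichannel list were above 0 (median 0.229, and 0.0515 without resilient replicate 3). The astrocyte fate factors gave 21 of 24 (median 0.257). Without resilient replicate 2 the median was 0.0775 for the astrocyte fate factors, 0.121 for the endfoot water and potassium list and 0.147 for the glutamate and GABA handling list, and without control replicate 2 it was 0.136, 0.138 and 0.205. The synapse formation and engulfment list gave 14 of 16 (median 0.155, and 0.0987 without control replicate 2). Among the fate factors Otx1, a forebrain homeobox gene, had 13.8, 39.1, 20.9, 8.13 and 18.0 CPM in resilient replicates 1 to 5, against 10.3, 13.4, 9.49, 10.3, 11.9 and 11.9 CPM in control replicates 1 to 6. Resilient replicate 2 was highest and the groups overlapped, with a log2 fold change of 0.60 ± 0.23 (adjusted p = 1.00 in edgeR) and of 0.36 without that library. Hes1 and Hes5, targets of Notch, were at 0.58 ± 0.28 and 0.87 ± 0.47. Neither passed the adjusted threshold, and they stood at 0.35 and 0.43 without resilient replicate 3.

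Lipid synthesis was among the lists with the fewest exceptions. Of the 30 measured cholesterol and fatty acid synthesis genes, 29 had fold changes above 0 (median 0.244), where 53.4% of all genes above background were above 0. Of these, 2 were at an unadjusted p under 0.05, against 1.48% of all genes above background, and 0 after adjustment. Sqle, squalene epoxidase, and Fads1, a fatty acid desaturase, were at 0.37 ± 0.19 and 0.37 ± 0.19, and at 0.19 and 0.22 without resilient replicate 2. The median of the cholesterol and fatty acid synthesis list was 0.0838 with the covariate from single-copy genes. The lipoprotein and lipid transport list had 17 above and 2 below 0 (median 0.173, 0.0911 to 0.254 with 1 library left out).

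Genes induced by glucocorticoids gave 16 of 18 above 0 (median 0.224), where 53.4% of all genes above background were above 0. Of these, 3 were at an unadjusted p under 0.05, against 1.48% of all genes above background, and 0 after adjustment. Plin4, a lipid droplet coat protein and glucocorticoid target, had 15.9, 21.8, 7.59, 7.62 and 7.91 CPM in resilient replicates 1 to 5, against 6.34, 12.4, 8.43, 6.60, 6.63 and 7.40 CPM in control replicates 1 to 6. Replicates 1 and 2 of the resilient group were higher than every control library and the other 3 lay among the controls, a log2 fold change of 0.42 ± 0.19 (adjusted p = 1.00). Sult1a1, a sulfotransferase, and Zbtb16, a transcription factor, were at 0.42 ± 0.20 and 0.27 ± 0.13, the second at 0.18 without resilient replicate 3. The median of the glucocorticoid response list was 0.0348 with the covariate from single-copy genes. Fkbp5, the common read-out of glucocorticoid action, lay below the background limit and was not described. Of the circadian clock genes 14 of 17 were above 0 (median 0.0863), with Rora, a nuclear receptor of the clock, at 0.24 ± 0.11 (adjusted p = 1.00).

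Energy metabolism showed small fold changes in nuclear genes. The glycolysis, glycogen and lactate list had 22 above and 4 below 0 (median 0.0911, 0.0267 to 0.163 with 1 library left out), with Pgk1, phosphoglycerate kinase, at 0.31 ± 0.16. The nuclear respiratory chain list had 32 above and 9 below 0 (median 0.0858, 0.0209 to 0.144 with 1 library left out), and the cytosolic ribosomal protein list 36 above and 18 below 0 (median 0.0811, 0.00874 to 0.217 with 1 library left out). All 13 transcripts encoded by mitochondrial DNA lay above 0 with a larger median of 0.597. Of these, mt-Atp6, mt-Atp8 and mt-Co3 had an unadjusted p under 0.05, against 1.48% of all genes above background on the higher side. These values rested on a single library: without resilient replicate 3 the median of the mitochondrial DNA encoded list was 0.0484. mt-Atp6, a subunit of the mitochondrial ATP synthase, had 6.68, 29.9, 79.1, 1.19 and 0.402 CPM in resilient replicates 1 to 5, against 8.95, 5.40, 1.72, 0.581, 1.31 and 1.14 CPM in control replicates 1 to 6. Resilient replicate 3 held the highest level and resilient replicate 5 the lowest, and the log2 fold change of 2.83 ± 1.19 became 0.47 without replicate 3. The genes mt-Atp8 (3.18 ± 1.35) and mt-Co3 (2.52 ± 1.13) adjoin or overlap it on the mitochondrial genome, so reads may have been divided among them, and they stood at 0.64 and -0.06 without that library. mt-Nd2, a subunit of respiratory complex I, was at 0.67 ± 0.41, and at 0.10 without it.

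Most microglial genes lay below 0. Of the 12 above background these were 10 (median -0.340), 1 at an unadjusted p under 0.05. Olfml3, a secreted protein of microglia, had 11.1, 6.40, 13.3, 13.2 and 11.7 CPM in resilient replicates 1 to 5, against 17.4, 18.1, 13.8, 17.1, 16.2 and 12.7 CPM in control replicates 1 to 6. Resilient replicate 2 was lowest and resilient replicates 3 and 4 lay inside the control range, with a log2 fold change of -0.50 ± 0.20 (adjusted p = 1.00 in edgeR). The surface receptors Siglech and Selplg were at -0.46 ± 0.26 and -0.45 ± 0.27. Selplg became -0.22 without control replicate 2 and -0.29 without resilient replicate 2. The median of the microglia list was between -0.523 and -0.200 with each of the 11 libraries left out in turn and -0.305 with the single-copy covariate. Background made up much of these counts, an estimated 42.6% for Olfml3 and 47.9% for Siglech. The 2 measured genes of the perivascular macrophage list were also below 0 (median -0.343), Stab1, a scavenger receptor, at -0.36 ± 0.19 and at -0.22 without resilient replicate 2. Without the 4 libraries of low background the median of the perivascular macrophage list was 0.00731.

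Neuronal genes lay below 0 in most cases, where 53.4% of all genes above background were above 0. The pan-neuronal list had 1 above and 12 below 0 (median -0.195, -0.295 to -0.0516 with 1 library left out), and the cortical excitatory neuron list 1 above and 11 below 0 (median -0.0986, -0.264 to 0.00283 with 1 library left out). Without resilient replicate 2 the pan-neuronal median was -0.0516, with 5 genes above and 8 below 0, and the cortical excitatory neuron median 0.00283. Without replicates 1 and 2 of both groups, the 4 libraries of low background, the pan-neuronal median was -0.0380 and the cortical excitatory neuron median 0.0547. Nefh, the heavy neurofilament subunit, had 7.80, 5.63, 3.798, 6.64 and 6.43 CPM in resilient replicates 1 to 5, against 10.6, 14.6, 7.67, 8.41, 10.9 and 7.12 CPM in control replicates 1 to 6. Resilient replicate 1 was the only resilient library inside the control range, with a log2 fold change of -0.61 ± 0.19 (adjusted p = 1.00 in edgeR). An estimated 43.3% of its counts were background. Nrgn, a calmodulin-binding protein of cortical neurons, had 177, 63.7, 22.8, 10.8 and 17.1 CPM in resilient replicates 1 to 5, against 84.1, 216, 27.9, 21.3, 39.1 and 10.5 CPM in control replicates 1 to 6, and its log2 fold change was -0.50 ± 0.41, with -0.80 without resilient replicate 1 and -0.26 without resilient replicate 2. Its level was high in replicates 1 and 2 of both groups, where background was low. The GABAergic neuron and striatal projection neuron lists kept 2 and 5 genes above background, with medians of 0.110 and -0.0295. The part of neuronal RNA in any astrocyte result was not tested.

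The oligodendrocyte list had 14 above and 4 below 0 (median 0.0874, -0.208 to 0.273 with 1 library left out), and 17 of 18 lay below 0 (median -0.208) without resilient replicate 3. Mbp, a major myelin protein, was at 0.23 ± 0.24 and Ermn, a myelin cytoskeletal protein, at -0.32 ± 0.22, and at -0.12 without resilient replicate 4. The oligodendrocyte precursor list had 4 above and 1 below 0 (median 0.164, 0.00306 to 0.215 with 1 library left out), the endothelial list 7 above and 4 below 0 (median 0.0187, -0.113 to 0.251 with 1 library left out), the pericyte and smooth muscle list 8 above and 2 below 0 (median 0.185, 0.0691 to 0.241 with 1 library left out), and the meningeal fibroblast list 2 above and 4 below 0 (median -0.0486, -0.217 to 0.170 with 1 library left out). The ependymal and choroid plexus list kept 1 gene, at 0.0329. All 4 globin genes of the red blood cell list above background were above 0 with a median of 1.51. Hbb-bs, an adult beta globin, had 24.0, 16.6, 2.53, 2.09 and 6.97 CPM in resilient replicates 1 to 5, against 2.80, 5.84, 3.38, 1.07, 2.01 and 2.49 CPM in control replicates 1 to 6. Resilient replicates 1, 2 and 5 were above every control library, and the log2 fold change was 1.46 ± 0.67 (adjusted p = 1.00). The alpha globin Hba-a1 was at 1.88 ± 0.91, and at 1.15 without resilient replicate 1. Globin genes share near-identical copies, so their separate values are uncertain.

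Signalling lists had fold changes in both directions. The CREB family and coactivators gave 6 above and 6 below 0 (median -0.00129, -0.0185 to 0.0352 with 1 library left out). Creb1, the cyclic AMP responsive transcription factor, had 69.2, 74.7, 56.96, 42.8 and 53.9 CPM in resilient replicates 1 to 5, against 62.1, 76.0, 43.6, 39.8, 41.3 and 50.8 CPM in control replicates 1 to 6. The groups overlapped throughout, with a log2 fold change of 0.13 ± 0.12 and a 95% interval of -0.11 to 0.38, and an estimated 50.1% of its counts were background. Atf2 and Creb3l2, factors of the same family, were at 0.29 ± 0.17 and -0.12 ± 0.08, the first at 0.07 without resilient replicate 3. The cAMP and PKA signalling list had 5 above and 12 below 0 (median -0.0467, -0.0791 to 0.0469 with 1 library left out), and the astrocyte calcium receptors list 5 above and 5 below 0 (median -0.00647, -0.0264 to 0.0336 with 1 library left out). The immediate early genes, which cells switch on within minutes of stimulation, gave 7 above and 13 below 0 (median -0.173, -0.363 to 0.0230 with 1 library left out). The immediate early median was 0.0230 without resilient replicate 2 and 0.148 without the 4 libraries of low background. Fosb, a Fos family factor, was at -0.53 ± 0.28, Npas4, an activity-dependent factor of neurons, at -0.44 ± 0.27, and Nr4a1, an orphan nuclear receptor, at -0.31 ± 0.20. Fosb, Npas4 and Nr4a1 were each highest in control replicate 2, and without resilient replicate 2 they stood at -0.32, -0.23 and -0.17. Growth factors and receptors gave 10 above and 4 below 0 (median 0.150, 0.0969 to 0.202 with 1 library left out), with Cntfr, the receptor of ciliary neurotrophic factor, at 0.41 ± 0.18 (adjusted p = 1.00) and Ntrk2, the receptor of brain-derived neurotrophic factor, at 0.26 ± 0.13. Wnt and Notch signalling gave 21 above and 4 below 0 (median 0.0880, 0.0154 to 0.135 with 1 library left out), and the extracellular matrix list 7 above and 5 below 0 (median 0.110, -0.0256 to 0.192 with 1 library left out).

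Stress and immune lists were divided too. The reactive astrocyte list had 6 above and 7 below 0 (median -0.00840, -0.149 to 0.0441 with 1 library left out). Its smallest p belonged to Lcn2, a secreted iron-siderophore carrier, which had 6.36, 1.53, 2.53, 2.77 and 2.55 CPM in resilient replicates 1 to 5, against 1.86, 0.875, 1.46, 2.35, 2.21 and 1.71 CPM in control replicates 1 to 6. Resilient replicate 1 stood apart, and the log2 fold change of 0.83 ± 0.37 (adjusted p = 1.00) became 0.38 without it. The heat shock and unfolded protein list had 16 above and 18 below 0 (median -0.00565, -0.0338 to 0.0587 with 1 library left out), with Bag3, a co-chaperone, at 0.37 ± 0.15 and at 0.16 without resilient replicate 2. The amino acid stress and serine synthesis list had 9 above and 3 below 0 (median 0.0783, 0.0331 to 0.134 with 1 library left out). The interferon response list had 4 above and 6 below 0 (median -0.0719, -0.143 to 0.0413 with 1 library left out), with Trim30a, an interferon-induced ligase, at 0.79 ± 0.34 and at 0.35 without resilient replicate 3. The antigen presentation and complement list had 7 above and 6 below 0 (median 0.00389, -0.162 to 0.0634 with 1 library left out). The nuclear and structural noncoding RNA list had 10 above and 5 below 0 (median 0.193, -0.0298 to 0.391 with 1 library left out). In that list the small RNAs Rny1, Rny3 and Rn7sk were at 2.01 ± 1.11, 1.65 ± 0.89 and 0.64 ± 0.39, and at -0.23, 0.01 and 0.05 without resilient replicate 3.

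Across the lists the position relative to 0 moved with the treatment of background and with single libraries. Of the 36 lists with at least 5 genes above background, 12 had a median above 0 in each of 4 settings: the background percent as covariate, no covariate, the single-copy covariate, and resilient replicate 3 left out. These held the astrocyte identity, fate factor, endfoot, gap junction, glutamate handling and both lipid lists, some of which share genes. They also held the Wnt and Notch, amino acid stress, glucocorticoid response, growth factor and mitochondrial DNA encoded lists. The mitochondrial median was 0.597, but 0.0356 with the single-copy covariate and 0.0484 without resilient replicate 3. The microglia, pan-neuronal, cortical excitatory neuron, striatal projection neuron, immediate early, cAMP and PKA signalling and interferon response lists, 7 in all, had a median below 0 in each. With each of the 11 libraries left out in turn, the 12 stayed above 0, while of the 7 only the microglia and pan-neuronal lists, 2 in all, stayed below 0. Without the 4 libraries of low background the cAMP and PKA signalling median was 0.0592 and the interferon response median 0.180. The remaining 17, among them the oligodendrocyte, ribosomal protein, respiratory chain and noncoding RNA lists, lay on both sides. The whole set of genes above background also shifted with the setting, with a median of 0.107 and 66.8% of genes above 0 without the covariate, against 53.4% with it.

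**Figure D4:**
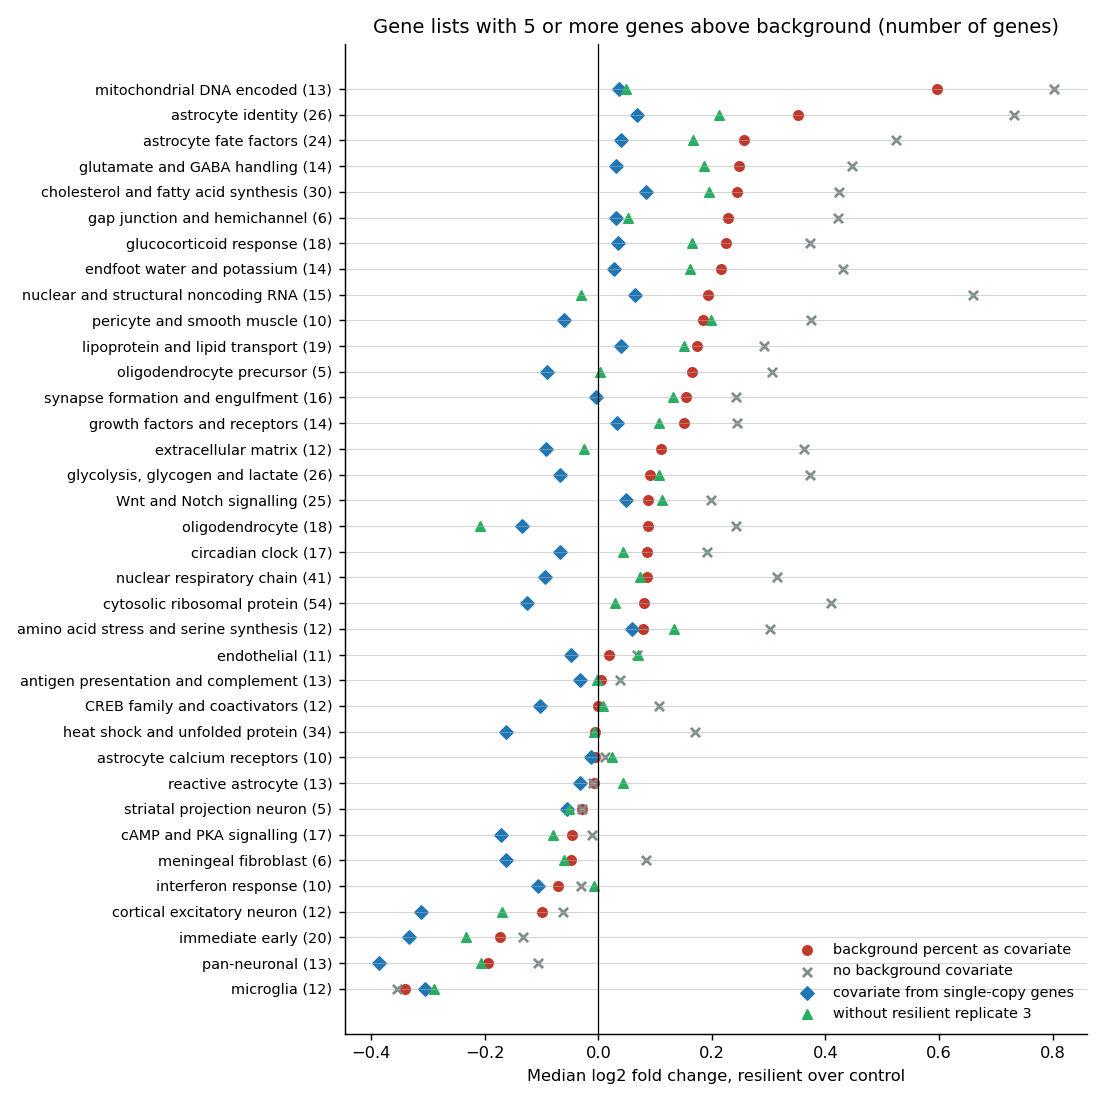
Median log2 fold change of resilient over control libraries for each list with 5 or more genes above background (number in brackets), under 4 settings. Red circles have the background percent as covariate, grey crosses no covariate, blue diamonds a covariate from single-copy genes of other organs, and green triangles leave out resilient replicate 3. The astrocyte identity median runs between 0.732 without a covariate and 0.0675 with the single-copy covariate, while the microglia median stays between -0.355 and -0.289.

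Among genes estimated lower in resilient mice, with log2 CPM above 2 and established symbols, the 10 smallest p belonged mostly to low-level genes. Trim21, a ubiquitin ligase that binds antibody in the cytosol (chromosome 7, 102557921 to 102565486), had 3.34, 4.09, 6.33, 5.79 and 4.96 CPM in resilient replicates 1 to 5, against 9.14, 6.57, 7.77, 7.98, 7.28 and 7.47 CPM in control replicates 1 to 6. Every resilient library was below every control library. Its log2 fold change was -0.66 ± 0.20 (the smallest p among genes above background, adjusted p = 1.00 in edgeR). Susceptible libraries averaged 7.36 ± 2.35 CPM (SD, n = 6). Mrps11, a protein of the mitochondrial ribosome (chromosome 7, 78783119 to 78792989), had 7.48, 6.40, 6.33, 7.41 and 6.97 CPM in resilient replicates 1 to 5, against 9.70, 9.19, 8.78, 10.8, 9.44 and 9.82 CPM in control replicates 1 to 6. These ranges were also apart, with a log2 fold change of -0.45 ± 0.16 (adjusted p = 1.00). Background was an estimated 43.3% of the counts of Trim21 and 43.7% of those of Mrps11. Fcgr3, an antibody receptor of microglia and macrophages (chromosome 1, 171051174 to 171064935), had 7.16, 3.58, 10.1, 13.2 and 12.5 CPM in resilient replicates 1 to 5, against 9.33, 10.1, 12.5, 17.7, 19.8 and 13.6 CPM in control replicates 1 to 6. The ranges overlapped, resilient replicate 2 was lowest, and the log2 fold change was -0.54 ± 0.19 (adjusted p = 1.00).

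The remaining genes with a small p and a lower level averaged between 2.49 and 12.99 CPM in resilient libraries and between 5.06 and 17.0 CPM in control libraries. Eppin, a protease inhibitor of the epididymis, was at -0.87 ± 0.30 and Klk1b4, a kallikrein-family protease, at -0.70 ± 0.25. Rhpn1 was at -0.50 ± 0.19, Wdr83, a scaffold of the MAP kinase cascade, at -0.55 ± 0.21, and Slc25a22, the mitochondrial glutamate carrier, at -0.52 ± 0.20. Fam84a was at -0.60 ± 0.23, and at -0.38 without resilient replicate 2. A further 5 were taken by fold under the same limits, among genes at an unadjusted p under 0.05. They were Ighg1, an immunoglobulin constant region (-0.80 ± 0.32), Zdhhc12, a palmitoyl transferase (-0.64 ± 0.26), Cyp2a4, a cytochrome of steroid metabolism (-0.62 ± 0.25), Syne4, a nuclear envelope protein of the nesprin family (-0.61 ± 0.24), and Tomm7, a subunit of the mitochondrial import pore (-0.61 ± 0.29). Ighg1 and Tomm7 had no count in resilient replicate 3, where 3 counts would be 1.90 CPM. They stood at -1.42 and -1.10 without resilient replicate 4. None passed the adjusted test. Background was an estimated 47.9% of the counts of Eppin, 39.4% for Klk1b4, 46.6% for Rhpn1 and 45.7% for Cyp2a4. Among the genes of this paragraph the share was highest for Ighg1 (51.7%) and lowest for Slc25a22 (22.05%). The 10 single-copy genes of other organs above background had 3 above and 7 below 0 (median -0.128). The part of background in these folds was not tested.

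Among genes estimated higher in resilient mice, Mcmbp, which binds the replicative helicase subunits, had the smallest p (chromosome 7, 128696441 to 128740495). It had 53.5, 53.7, 49.4, 33.7 and 44.4 CPM in resilient replicates 1 to 5, against 36.0, 43.2, 30.0, 32.0, 35.5 and 35.1 CPM in control replicates 1 to 6. Resilient replicates 1, 2, 3 and 5 exceeded every control library and replicate 4 did not. The log2 fold change was 0.35 ± 0.11 (adjusted p = 1.00 in edgeR). Acss2, the enzyme that makes acetyl-CoA from acetate outside mitochondria (chromosome 2, 155517948 to 155585724), had 65.9, 127, 70.9, 42.5 and 66.5 CPM in resilient replicates 1 to 5, against 54.1, 61.0, 45.3, 43.8, 49.8 and 54.3 CPM in control replicates 1 to 6. Resilient replicate 4 was below every control library and the other 4 were above them, with a log2 fold change of 0.42 ± 0.14 (adjusted p = 1.00). Neat1, the long noncoding RNA that scaffolds paraspeckles (chromosome 19, 5824708 to 5845478), had 121, 176, 101, 40.0 and 80.3 CPM in resilient replicates 1 to 5, against 70.3, 87.8, 51.9, 36.9, 62.2 and 67.3 CPM in control replicates 1 to 6. Replicates 1 and 2, with low background, were the highest of each group, and the log2 fold change with background in the fit was 0.52 ± 0.19 (adjusted p = 1.00). Tmem176b, a membrane protein (chromosome 6, 48833818 to 48841496), had 30.2, 65.8, 33.5, 12.3 and 19.3 CPM in resilient replicates 1 to 5, against 20.3, 22.3, 10.8, 12.0, 15.5 and 17.4 CPM in control replicates 1 to 6, a log2 fold change of 0.65 ± 0.22 (adjusted p = 1.00).

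The other 6 by p were Mier3, a transcriptional corepressor (0.42 ± 0.14), Prdx5, a peroxiredoxin (0.59 ± 0.20), Ddost, a subunit of the enzyme that glycosylates new proteins (0.47 ± 0.17), Nfic, a nuclear factor I transcription factor (0.29 ± 0.11), Pabpc4, a poly(A)-binding protein (0.42 ± 0.15), and Gjb2, a connexin (0.63 ± 0.24). Pabpc4 stood at 0.20 without resilient replicate 3. Counts of Mcmbp, Acss2, Nfic, Pabpc4 and Neat1 may include reads of overlapping annotated genes, 2 to 5 per gene, since the strand setting was not stated. Fold changes of all 30 genes chosen by p or by fold had the same direction without the background covariate. The genes were chosen for their values in these same libraries, so the shared direction is no independent check.

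The next 5 genes above 0 were taken by fold, among those with log2 CPM above 2, established symbols and an unadjusted p under 0.05. Some genes outside these limits had larger folds, such as mt-Atp8 given above. Of the 5, mt-Atp6, Cdk8, Zfp791 and Mocos had much smaller values without resilient replicate 3. Hbb-bs lay between 1.16 and 1.81 with each library left out. Cdk8, a kinase of the Mediator complex, had 417, 809, 1523, 98.6 and 172 CPM in resilient replicates 1 to 5, against 432, 416, 136, 82.1, 141 and 130.1 CPM in control replicates 1 to 6. Replicates 1 and 2 of both groups were high, resilient replicate 3 was highest, and the groups overlapped. The log2 fold change of 1.60 ± 0.67 became 0.23 without resilient replicate 3. Zfp791, a zinc finger protein, had 20.7, 40.9, 137, 12.99 and 13 CPM in resilient replicates 1 to 5, against 19.03, 17.7, 12.8, 10.5, 15.5 and 11.0 CPM in control replicates 1 to 6, and its log2 fold change of 1.45 ± 0.57 became 0.35 without that library. Mocos, which activates the molybdenum cofactor of some enzymes, was at 1.35 ± 0.58 and at 0.47 without it. The share of counts on genes annotated as ribosomal RNA moved the same way: it was 0.272, 0.574, 1.33, 0.0549 and 0.116% in resilient replicates 1 to 5, against 0.339, 0.285, 0.0860, 0.0323, 0.113 and 0.0769% in control replicates 1 to 6. The part of ribosomal RNA reads in these folds was not tested.

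Resilient mice were also set against susceptible mice, the other defeated group, in the same fit. With edgeR 0 of 32167 genes passed (0.0% called), the lowest adjusted p was 0.642, and 1198 genes had an unadjusted p under 0.05. DESeq2 called 1 gene, Acta2, at an adjusted p of 0.0345. Acta2, the actin of vascular smooth muscle, averaged 12.3 ± 3.16 CPM in resilient and 29.5 ± 19.9 CPM in susceptible libraries (SD, n = 5 and 6), with ranges of 9.49 to 17.6 and 17.3 to 69.7 CPM. Its log2 fold change of resilient over susceptible was -1.11 ± 0.21 in edgeR (adjusted p = 0.642). The next by p were Myh11, smooth muscle myosin (-0.56 ± 0.13), Zdhhc12, Tpm2, a muscle tropomyosin (-0.82 ± 0.22), and Synpo2l, an actin-associated muscle protein (-0.66 ± 0.18). Against control mice the same genes stood at -0.17 ± 0.21 for Acta2, -0.18 ± 0.13 for Myh11, -0.64 ± 0.26 for Zdhhc12, -0.09 ± 0.21 for Tpm2 and -0.15 ± 0.17 for Synpo2l.

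Whether the resilient difference was particular to PFC was tested as an interaction over all 39 libraries, with 7 resilient and 7 control NAc libraries. The fit took all libraries as independent, each having a mouse id of its own. However, PFC libraries carry odd and NAc libraries even numbers. Each odd number and the even number after it, where both are present, share a treatment label. Whether such numbers are the same animal is not stated, and such a pairing was not in the fit. With edgeR 0 of 38171 genes passed (0.0% called), the lowest adjusted p was 1.00, 943 genes had an unadjusted p under 0.05, and DESeq2 called 0. The smallest p belonged to Caly, a vesicle protein of neurons, at -0.93 ± 0.28 for the PFC difference minus the NAc difference, from -0.42 ± 0.22 in PFC and 0.52 ± 0.18 in NAc. Myh14, a nonmuscle myosin, was at 0.52 ± 0.16, Fam84a at -1.01 ± 0.32, Fam131a at -0.79 ± 0.25 and Syt17, a synaptotagmin, at -0.52 ± 0.17. Of the 30 genes named by p or fold in PFC, 13 had the same direction in NAc. The astrocyte identity genes had a median of 0.352 in PFC and -0.155 in NAc, and the pan-neuronal genes -0.195 in PFC and 0.348 in NAc. The oligodendrocyte genes had 0.0874 in PFC and -0.647 in NAc, with Mbp at 0.23 ± 0.24 and -0.69 ± 0.28. Such medians carry no test of a difference between regions.

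**Figure D5:**
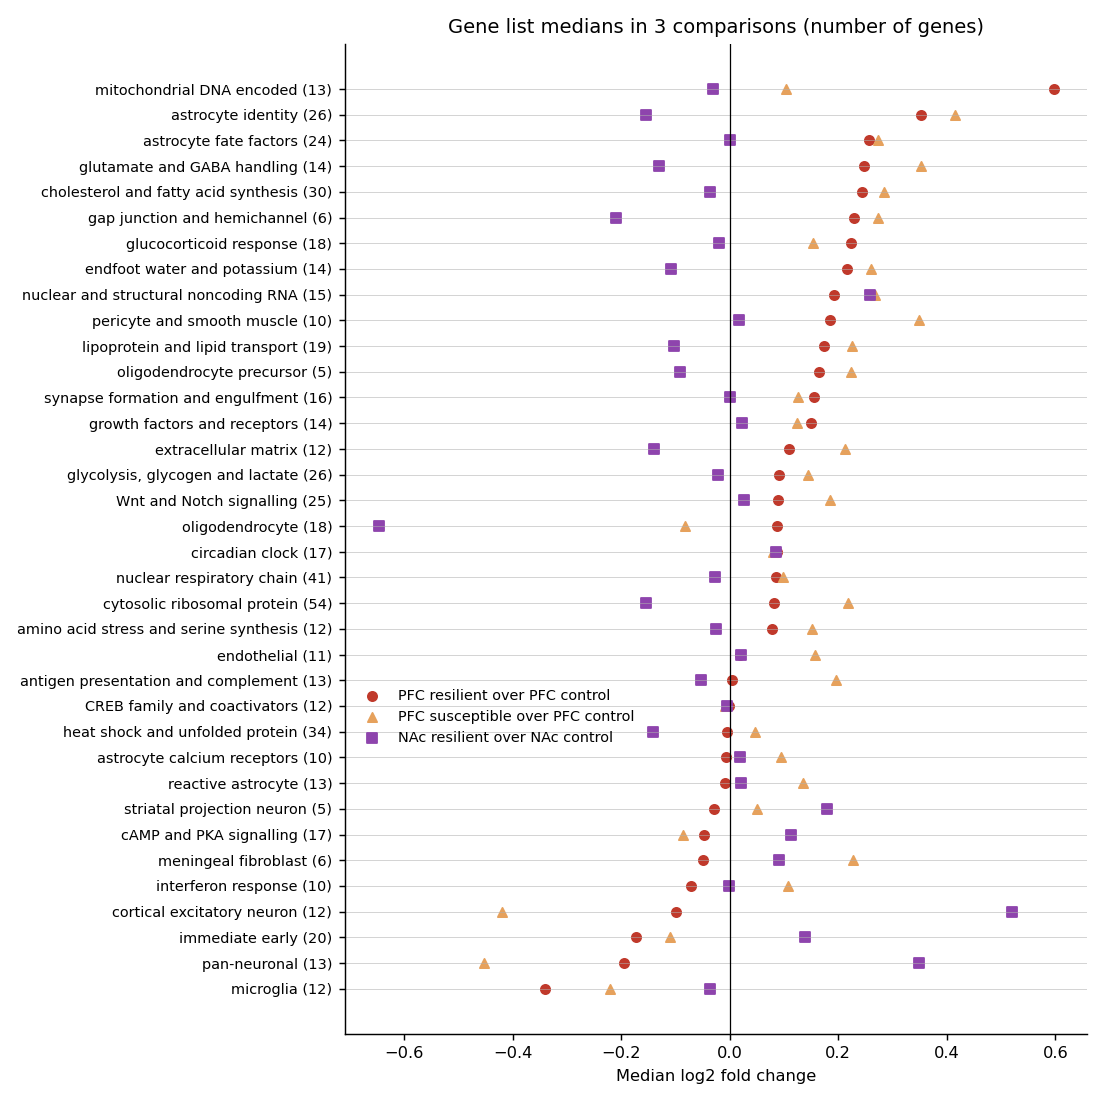
Median log2 fold change of each gene list in 3 comparisons, with the background percent as covariate and the number of genes in brackets. Red circles are PFC resilient over control, orange triangles PFC susceptible over control, which shares the same control libraries, and purple squares NAc resilient over control. The astrocyte identity genes lie at 0.352, 0.415 and -0.155, and the pan-neuronal genes at -0.195, -0.453 and 0.348.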

How the data were processed

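RNA from ACSA-2-sorted astrocytes of 17 PFC libraries (5 resilient, 6 susceptible, 6 control mice) was analysed from the whole-series tables, with the NAc libraries for 1 interaction. The counts, deposited as whole numbers for each gene, were made by the authors with featureCounts on mm10 per the submitters' processing notes. Versions, aligner, annotation and strand setting were not given in the sources used here. FPKM, deposited beside the counts, are the same counts per gene length and library total. The length they imply equals the gene span in GENCODE M21, introns included, for 54229 of 54229 genes compared (relative tolerance 1e-06), so unspliced and stray reads enter the counts. Coordinates are from GENCODE M21, and 55141 of 55401 identifiers matched it without version.

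Samples were grouped by tissue and treatment labels. No 2 libraries held identical counts, and since no label gives litters, cages or days, the p-values here reflect variation between labelled libraries, which may be technical. Background percent is the FPKM of 1479 receptor genes over 0.764, the FPKM of an even spread over 1308.8 Mb of gene spans. Counts were tested in edgeR 4.0.16 (R 4.3.3): quasi-likelihood with robust dispersion, trimmed-mean scaling, default filter by group, 3 PFC groups fitted together, centred background percent as covariate, Benjamini-Hochberg adjustment over 32167 genes, call at 0.05. Fold changes are log2 with standard error. Since background is in the fit, they need not equal the ratio of the group means. CPM are scaled by the same factors. The estimated background share of a gene is its span times the receptor FPKM, relative to its CPM. The scripts were tested on simulated counts. The 95% intervals of fold changes come from this fit and carry the spread between libraries, a floor of 3 counts covers counting error only, and totals of 1222948 to 28212160 counts set the precision.

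The members, the 40 gene lists, the background measure and the gene-naming rule were chosen with earlier results of these data known. The rule takes, among genes above background with log2 CPM above 2 and an established symbol, the 10 smallest p and then the 5 largest folds at an unadjusted p under 0.05 in each direction, up to 4 members of a list by p, 8 fixed genes, and the 5 smallest p of the other 2 contrasts. A few genes that the rule or the marker lists name are not reported here. Alternatives covered the covariate, scaling, filter, DESeq2 1.42.0, limma 3.58.1 (voom, and trend on log2(FPKM + 0.5) and log2(FPKM + 0.1)), a replicate block, the set of libraries fitted and each library left out. Leaving out the 4 low-background or the 2 shallowest libraries, and fitting only genes above background without covariate, were added after seeing the data.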

Additional observations from a re-analysis of the deposited data

Results flagged for a closer look

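A library stood apart from the rest of its own group for 18 of 160 group and gene combinations examined among the genes named above, where its gap to the nearest library exceeded Dixon's 95% critical value for the group size. Chance alone gives about 1 in 20. Every one of these libraries was the highest of its group. In resilient replicate 2 this was Aldh1l1 at 265 CPM with the next library at 131 CPM, Aqp4 at 548 CPM with the next library at 147 CPM, Gfap at 57.1 CPM with the next library at 22.6 CPM, Sqle at 107 CPM with the next library at 46.8 CPM, Sult1a1 at 21.5 CPM with the next library at 9.39 CPM and Bag3 at 59.6 CPM with the next library at 27.0 CPM. In resilient replicate 3 this was Pabpc4 at 74.1 CPM with the next library at 36.9 CPM, Zfp791 at 137 CPM with the next library at 40.9 CPM and mt-Co3 at 58.2 CPM with the next library at 12.3 CPM. In resilient replicate 1 this was Lcn2 at 6.36 CPM with the next library at 2.77 CPM, Npas4 at 15.0 CPM with the next library at 7.10 CPM and Hba-a1 at 22.9 CPM with the next library at 7.16 CPM. In control replicate 2 this was Plin4 at 12.4 CPM with the next library at 8.43 CPM, Zbtb16 at 551 CPM with the next library at 315 CPM, Fosb at 13.1 CPM with the next library at 7.27 CPM, Npas4 at 27.4 CPM with the next library at 12.5 CPM and Nrgn at 216 CPM with the next library at 84.1 CPM. In control replicate 1 this was mt-Co3 at 7.83 CPM with the next library at 3.06 CPM. Resilient replicate 2 had a background percent of 19.03%, the lowest of the 11 libraries, resilient replicate 3 had the lowest total, 1603943 counts, and control replicate 2 had the lowest background of its group, 21.7%. The part of these measures in the separate values was not tested.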

How the results depend on the processing

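The count of 0 genes passing for resilient against control mice held in all 30 alternatives. The number of genes above background at an unadjusted p under 0.05, 317 as reported, was 129 without the background covariate, 145 when only genes above background were fitted without it, 166 with the single-copy covariate, 118 of 3210 when only genes at least 4 times background were fitted, 657 with no count filter, 195 with the stricter filter and 584 by DESeq2. With each library left out it was between 169 (without control replicate 2) and 676 (without resilient replicate 1), and 645 without resilient replicate 4, 203 and 204 without resilient replicates 2 and 3, and 198 without control replicate 5. It was 346 with relative log expression scaling, 381 by limma-voom, 400 and 430 by limma-trend with pseudocounts of 0.5 and 0.1, of which 65 and 55 were higher, 395 without the 4 low-background libraries, and 245 without the 2 shallowest (85 higher). The replicate block gave 0 passing genes and 432 at an unadjusted p under 0.05, or 318 without the covariate. Deviations of same-numbered resilient and control libraries correlated at 0.322, 0.526, 0.000876, 0.767 and 0.421, and for 2 of 5 the best correlation was with the same number, so the numbers were not taken as pairs. For resilient against susceptible mice DESeq2 called 1 gene where edgeR called 0. The difference in background percent, -3.13 points, lay between -9.18 and 3.94 with each library left out (2.56 and 3.94 without resilient replicates 1 and 2, 0.0578 and 0.0254 without control replicates 3 and 4). The difference in total lay between -9.93 and -4.33 (in units of 1e6 counts), with p = 0.0429 (exact permutation test) without resilient replicate 4.

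Among named genes 15 of 2323 alternative values changed sign, over 7 genes. Aqp4 was at -0.21 with the single-copy covariate, -0.02 and -0.03 without resilient replicates 2 and 3, and -0.04 without the 2 shallowest libraries, and its range with each library left out reached 0.39. That range reached 3.08 for mt-Co3, 0.41 for Mbp and 2.50 for Rny1. Gja1 was at -0.06 and Mbp at -0.08 with the single-copy covariate. Without resilient replicate 3, mt-Co3 was at -0.06, Mbp at -0.16 and Rny1 at -0.23, and without the 2 shallowest libraries mt-Co3 was at -0.08, Mbp at -0.17, Rny1 at -0.24 and Rny3 at -0.01. Mbp was at -0.03 by limma-voom, and Ermn at 0.10 without the background covariate. The causes were not tested. Low depth limits genes of a few CPM most in resilient replicate 3, where 3 counts are 1.90 CPM.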

Other observations

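Of genes above background with an average log2 CPM over 5, 28 had a log2 fold change beyond 1 either way, all of them above 0. These genes were chosen after their values were seen. In 25 of them the highest level was in resilient replicate 3, and in the other 3 in resilient replicate 2. Their median log2 fold change was 1.36, and 0.197 without resilient replicate 3. CT010467.1, annotated as ribosomal RNA, had 3161, 7034, 12700, 423 and 1037 CPM in resilient replicates 1 to 5, against 3482, 3527, 715, 237, 949 and 654 CPM in control replicates 1 to 6. Lars2, the mitochondrial leucyl-tRNA synthetase, had 254, 490.2, 927, 84.1 and 111 CPM in resilient replicates 1 to 5, against 264, 278, 112, 79.8, 109 and 99.3 CPM in control replicates 1 to 6. Mir6236, annotated as a microRNA, had 63.2, 196, 611, 13.2 and 14.1 CPM in resilient replicates 1 to 5, against 105, 63.5, 19.4, 4.00, 19.3 and 10.2 CPM in control replicates 1 to 6. mt-Rnr1, the small mitochondrial ribosomal RNA, had 6924, 13130, 10240, 1361 and 2825 CPM in resilient replicates 1 to 5, against 6645, 6349, 1993, 1071, 1834 and 2266 CPM in control replicates 1 to 6. In all 4 genes replicates 1 and 2 of both groups were above replicates 4 and 5, and the ranges of the groups overlapped.

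Chst12, a sulfotransferase of chondroitin chains, was the only gene above background whose resilient libraries all exceeded its control libraries, at 18.4 to 24.1 CPM in resilient libraries, against 13.6 to 18.2 CPM in control libraries. It was chosen after its values were seen. Its log2 fold change was 0.28 ± 0.16 (adjusted p = 1.00 in edgeR). The other 7 genes with separate ranges were lower in resilient libraries, and 4 of them had a resilient library with no count.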
